A study of Homo sapiens with 6 samples.

Results

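Histone methyltransferases and demethylases, the enzymes that write and erase methyl groups on histone tails, were examined in PANC-1 cells after knockdown of CD73. Members were taken by gene name: protein-coding genes of the numbered KMT, KDM, SETD and PRMT series, together with EZH1, EZH2, EED, SUZ12, EHMT1, EHMT2, NSD1, NSD2, NSD3, SUV39H1, SUV39H2 and DOT1L, with KDM3A left out by the rule, which gives no reason. The rule reads gene names and no expression value, but it was written with earlier results of these data known. Of 30735 genes listed in every sample, 52 were members. A gene was tested when its level reached 1 RPKM in 3 or more samples, where RPKM is the read count divided by exon length and library size, and 50 members were among the 12527 genes that passed. KDM7A and KDM8 did not pass.

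PANC-1 is an established human pancreatic cancer cell line, grown here in DMEM with fetal bovine serum. Cells in 6-well plates were transfected with a Lipofectamine reagent in serum-free medium, either with siRNA against CD73 or with a negative control siRNA, and total RNA was sequenced. There were 3 samples per group, numbered 1 to 3 in each, and the study describes them as separate knockdown experiments. The siRNA is named only by a catalogue number. No sample is described as receiving a second siRNA or restored CD73. Effects of the siRNA sequence on other transcripts therefore cannot be told apart from effects of lower CD73. The number of reads implied by the RPKM steps ran from 15009120 to 16836207 per library, and 49 of the 52 members had at least 100 reads in every sample.

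Methyl groups on lysine and arginine residues of histones mark chromatin by position. Methylation of lysine 4 of histone H3 is typical of active promoters, of lysine 36 of transcribed gene bodies, and of lysines 9 and 27 of silent chromatin. SET-domain enzymes and DOT1L methylate lysines, PRMT enzymes methylate arginines, the flavin-dependent KDM1 enzymes and the larger Jumonji family remove lysine methylation, and all the methyltransferases draw on S-adenosylmethionine. Several of these enzymes, EZH2, KMT2C, KMT2D and KDM6A among them, are known from cancer genetics, the last 3 as genes mutated in pancreatic cancer.

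The start sites of the 2 members that passed the test in the comparison of groups are shown because their promoters differ in a common sequence element. Each window holds 15 bases before and 15 bases from the RefSeq start on GRCh38.p14, read 5′ to 3′ on the gene's strand, with CpG dinucleotides in capitals. The PRMT6 window lies at chr1:107056659-107056688 on the plus strand and the KDM5B window at chr1:202808407-202808436 on the minus strand.
PRMT6: cctggagccCGCGcCGtgcCGCGctaCGcc
KDM5B: gtgctgcCGttgccCGtacaactCGgactt
The PRMT6 window held 6 CpG dinucleotides and the KDM5B window 3. Over 300 bases, from 250 before to 50 after the start, the PRMT6 promoter held 25 CpG dinucleotides at 63.0% GC and the KDM5B promoter 34 at 63.7% GC. The GC-box hexamer GGGCGG was present in the KDM5B promoter and not in these 300 bases of PRMT6.

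Across the members, RefSeq gave 67 promoters of this length for 49 genes. SETD1B, DOT1L and NSD3 had no entry. GC content over 50% together with a ratio of observed to expected CpG above 0.6 was found in 62 of the 67 (92.5%), against 59.8% of all 22199 protein-coding promoters. GGGCGG, searched on both strands, was found in 54 (80.6%, against 56.3% of all). CCAAT was present in 22 (32.8%, against 34.7%), and TATAAA in 0 of 67 (against 9.47%). The 3 motifs were counted independently, whether or not 2 of them overlapped. The member promoters were thus CpG-rich more often than promoters in general, with no match to the TATA letters. The share among genes expressed in these cells was not computed, and a gene with several starts was counted more than once.

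NT5E, the gene that encodes CD73 (chromosome 6), measured 3.36, 6.85 and 8.22 RPKM in CD73 siRNA samples 1, 2 and 3, and 13.96, 13.87 and 17.1 RPKM in the controls. All knockdown samples lay below all controls, at 41.0% of the control mean. The log2 fold change was -1.23 (SE 0.258, unadjusted p = 0.00144), with an adjusted p of 0.303 from limma. An exact permutation test of 3 against 3 samples cannot give a p below 0.1, which is the value it gave for NT5E.

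The cell identity was checked against ductal epithelial markers. KRT8 and KRT18 were present at 30.0 to 158 RPKM, KRT19 at 3.59 to 5.39 RPKM and EPCAM at 0.582 to 1.71 RPKM, while KRT7 did not exceed 0.107 RPKM. KRT8 fell from 158, 72.0 and 83.6 RPKM in the controls to 45.4, 47.5 and 30.0 RPKM after CD73 siRNA, with an unadjusted p of 0.00261. KRT18 also fell, by 0.68 on the log2 scale (unadjusted p = 0.00448). The summed level of the marker list was 71.0 to 101 RPKM in knockdown samples and 134 to 252 RPKM in controls, and its part in the results was not tested. Of 10 markers of other cell types that were looked up, 6 were among the genes listed: PTPRC, PECAM1, CDH5, LUM, INS and GCG. These markers of leukocytes, endothelium, fibroblasts and islet cells summed to at most 0.0995 RPKM in any sample. CD3E, DCN and the acinar genes PRSS1 and CPA1 were not found among the genes listed, so acinar cells were not checked. Of 14 proliferation genes, 0 passed the threshold of unadjusted p below 0.01 (limma) and 1, RRM2, had p below 0.05; their summed level was 908 to 946 RPKM in knockdown samples and 883 to 954 RPKM in controls. In bulk samples, fewer cells of a kind and less RNA per cell cannot be told apart.

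The members were expressed at moderate levels. Their median over genes of the mean RPKM was 8.93, against 6.90 over all genes tested. PRMT1, the main enzyme of asymmetric arginine dimethylation, was the highest at 42.7 RPKM, followed by KDM1A, SUZ12, KMT2A and SETD3, the 5 members above 20 RPKM. KDM4C, a demethylase of lysine 9, was the lowest tested member at 1.46 RPKM, and 8 members lay under 3 RPKM. Replicates of a member differed by about as much as those of genes in general: the median coefficient of variation was 13.5% in controls and 11.5% in knockdown samples, against 14.0% and 11.9% over all genes.

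**Figure D1:**
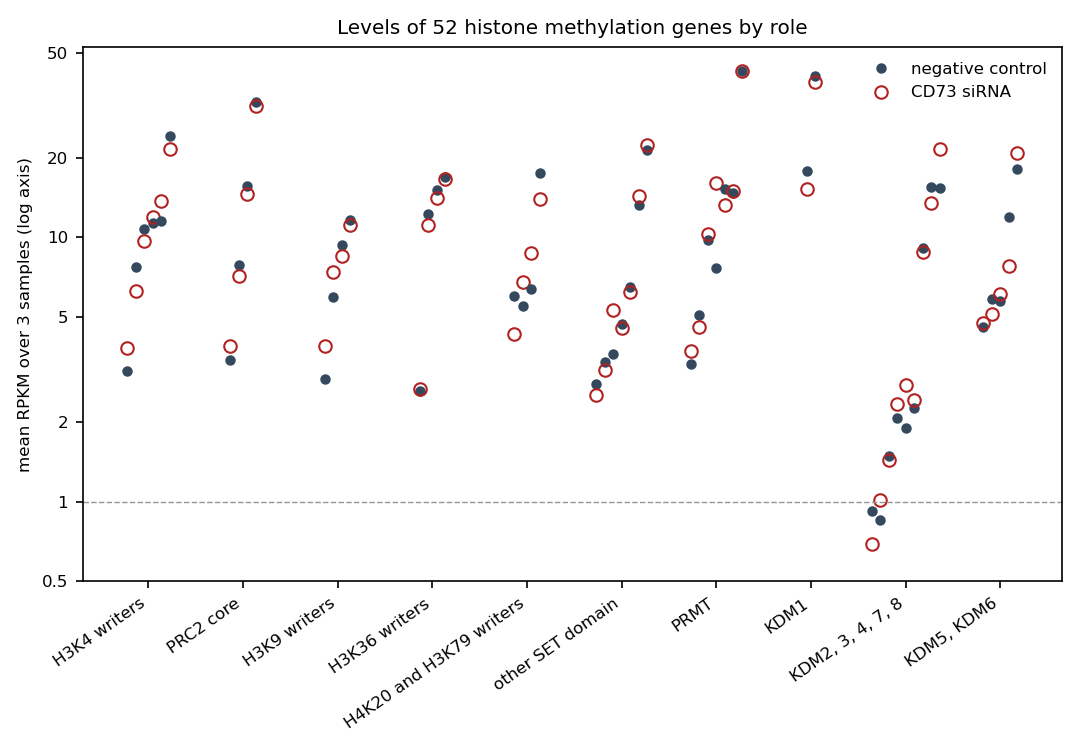
Mean RPKM over 3 samples of each of the 52 members on a log axis, by role, with filled points for negative control, open circles for CD73 siRNA and a dashed line at 1 RPKM. PRMT1 is the highest at 42.7 RPKM in both groups and KDM4C the lowest tested, with KDM7A and KDM8 near or under the line.

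The question of the comparison was which of these genes differ after CD73 knockdown. PRMT6, an arginine methyltransferase, rose, and KDM5B, a demethylase of lysine 4 of histone H3, fell, at an unadjusted p below 0.01, the threshold used here. That is 1 of 50 members higher and 1 of 50 lower, or 2% in each direction, against 1.82% of all genes tested that were higher and 1.31% that were lower. In either direction 3.13% of all genes passed, so the share among members was near the background. With Benjamini-Hochberg adjustment in limma, 0 members had an adjusted p below 0.05, and 6 had an unadjusted p below 0.05 (12.0%, against 12.1% of all genes). The 6 were PRMT6, KDM5B, KDM2A, EHMT1, KDM2B and KMT5B.

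Most members differed little between the groups. By mean log2 level 24 were higher and 26 lower, with a median log2 fold change of -0.03, against 0.01 over all genes. For 34 of 50 the log2 fold change was under 0.2 in size, as it was for 8189 of all 12527 genes tested. Its median size was 0.12 among members and 0.14 over all genes, so the members were near the background. For 32 of 50 members the whole 95% interval lay within 0.5 of 0, which was not counted over all genes. All intervals of the members together ran from -0.92 to 1.58. Methyltransferases with the PRC2 subunits were higher in 17 and lower in 19 of 36 cases, and demethylases were higher in 7 and lower in 7 of 14. Writers and erasers therefore showed no common direction.

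**Figure D2:**
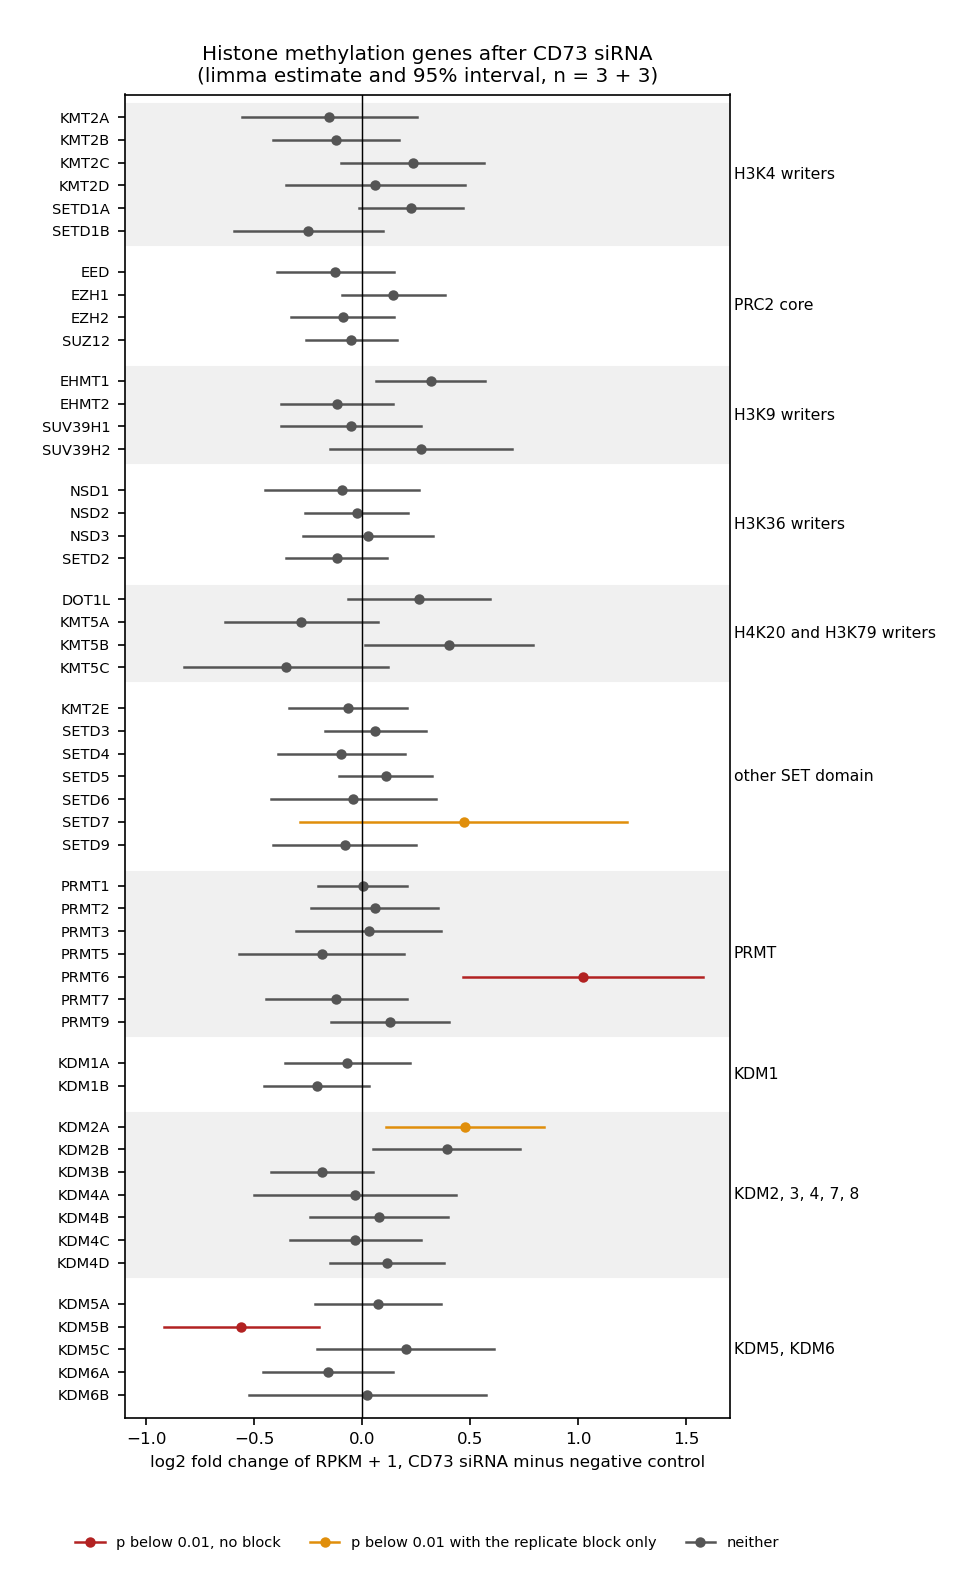
Log2 fold change (CD73 siRNA minus negative control, log2(RPKM + 1)) of the 50 tested members with its 95% interval from limma, grouped by role, in red for unadjusted p below 0.01, in orange where that held with the replicate block only and in grey otherwise. PRMT6 at 1.02 and KDM5B at -0.56 are red, and most other intervals cross 0.

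The groups of 3 did not overlap in 13 of the 50 members. EZH1, SETD1A, SETD5, EHMT1, KDM2B, KDM4D and PRMT6 had every knockdown sample above every control (7 of 50, 14.0%, against 10.3% of all genes). SETD2, KMT5A, KMT5C, KDM3B, KDM5B and KDM1B had every knockdown sample below every control (6 of 50, 12.0%, against 8.07% of all genes). Both shares were a few points over the background.

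The replicate numbers were also used, since samples that share a number deviated together. The difference within each number had the same sign 3 times for 18 members that were higher (36%, against 27.0% of all genes) and 14 that were lower (28.0%, against 24.5%). When limma was given the replicate number as a block, 4.27% of all genes were higher and 3.30% lower at unadjusted p below 0.01. Among members, PRMT6, KDM2A and SETD7 were then higher (3 of 50) and KDM5B was lower (1 of 50). The lowest adjusted p of a member in that fit was 0.113, so 0 of 50 passed adjustment with the block in limma as well.

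PRMT6 places asymmetric dimethyl marks on arginine 2 of histone H3, a mark known to oppose methylation of the neighbouring lysine 4. Its gene lies on the plus strand at chr1:107056679-107067636 (GENCODE 29), and none of its exon bases are shared with another gene. CD73 siRNA samples 1, 2 and 3 measured 18.7, 16.7 and 12.9 RPKM, and the controls 5.005, 10.8 and 7.23 RPKM. All knockdown samples were above all controls, with control 1 the lowest. The means were 16.1 ± 2.92 RPKM and 7.67 ± 2.90 RPKM (SD, 3 per group), a ratio of 2.10. The log2 fold change was 1.02 (SE 0.241, 95% interval 0.46 to 1.58), with an unadjusted p of 0.00288 and a limma adjusted p of 0.303. Within replicate numbers 1, 2 and 3 the difference was 1.71, 0.59 and 0.76 on the log2(RPKM + 1) scale, so number 1 gave the widest gap and every number was in the same direction. Without CD73 siRNA sample 1 the unadjusted p was 0.0139, above the threshold, and in the fit without moderation of the variances it was 0.0322.

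KDM5B removes di- and trimethyl groups from lysine 4 of histone H3 and is known as a marker of slow-cycling cells in some tumours. The gene lies on the minus strand at chr1:202724495-202809470 (GENCODE 29) and shares no exon bases with another gene. It measured 6.55, 9.33 and 7.48 RPKM in CD73 siRNA samples 1, 2 and 3, and 13.7, 12.1 and 10.0 RPKM in the controls. Every knockdown sample was below every control, the closest being 9.33 and 10.0 RPKM. The means were 7.79 ± 1.41 and 12.0 ± 1.86 RPKM (SD, 3 per group), and the level after knockdown was 65.2% of the control. The log2 fold change was -0.56 (SE 0.156, 95% interval -0.92 to -0.20), with an unadjusted p of 0.00688 and a limma adjusted p of 0.305. Differences within numbers 1, 2 and 3 were -0.97, -0.34 and -0.38. The call was lost without CD73 siRNA sample 1 (unadjusted p = 0.0294) or 3 (unadjusted p = 0.0214) and without control 1 (unadjusted p = 0.0269) or 2 (unadjusted p = 0.0181). It was also lost with no filter on low values (unadjusted p = 0.0115) and without moderation (unadjusted p = 0.0351). The sign stayed negative in each.

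**Figure D3:**
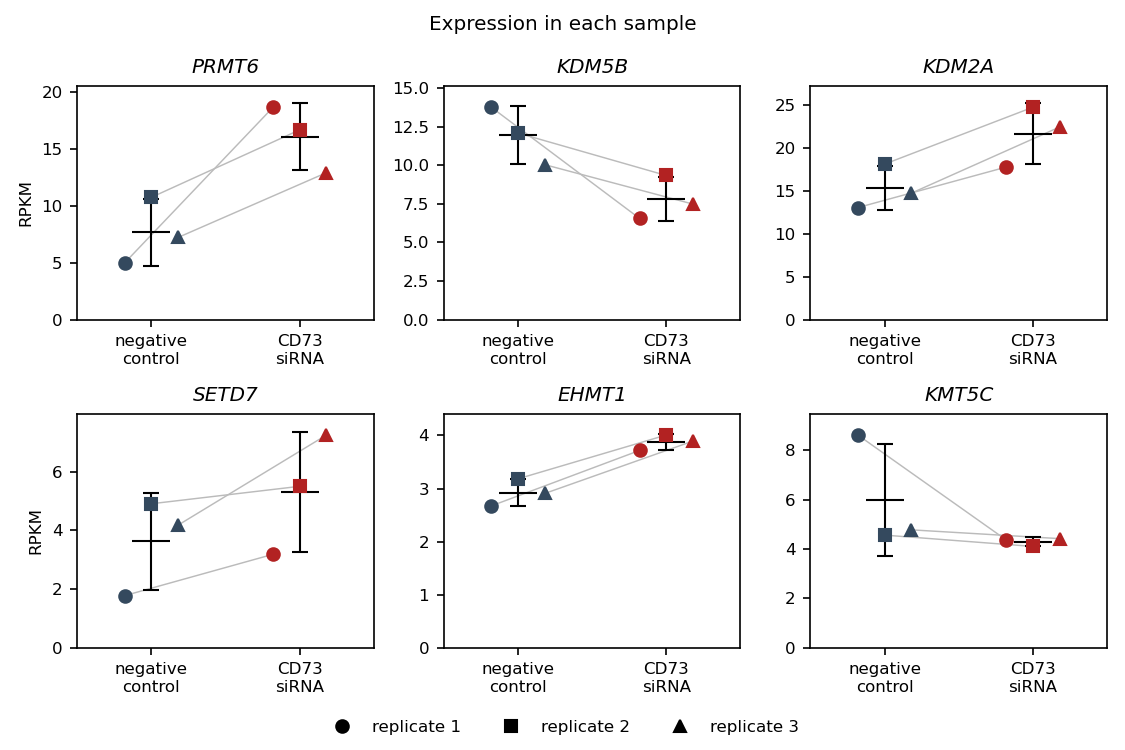
Level in RPKM of 6 members in each sample, with the symbol giving the replicate number, grey lines joining samples of the same number and black bars at the group mean and SD. PRMT6 lies at 12.9 to 18.7 RPKM after CD73 siRNA and 5.005 to 10.8 RPKM in controls, whereas KDM5B lies at 6.55 to 9.33 RPKM and 10.0 to 13.7 RPKM.

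KDM2A and SETD7 passed the threshold with the replicate block and not in the fit without it. KDM2A, which removes methyl groups from lysine 36 of histone H3 and binds unmethylated CpG islands, measured 17.8, 24.8 and 22.5 RPKM in CD73 siRNA samples 1, 2 and 3 and 13.1, 18.1 and 14.8 RPKM in the controls. The groups overlapped, because knockdown sample 1 lay below control 2, but each knockdown sample was above the control of its own number by 0.42, 0.43 and 0.58 on the log2 scale. The log2 fold change was 0.47 (SE 0.158, 95% interval 0.11 to 0.84), with an unadjusted p of 0.0172 without the block and 0.000763 with it (limma adjusted p = 0.347 and 0.113). Without the block it passed when CD73 siRNA sample 1 (unadjusted p = 0.0067) or control 2 (unadjusted p = 0.0061) was left out, and with the block it was lost when number 3 was left out. The gene lies at chr11:67119269-67258087 on the plus strand (GENCODE 29).

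SETD7 methylates lysine 4 of histone H3 once and is also known to methylate non-histone proteins. It measured 3.19, 5.51 and 7.26 RPKM in CD73 siRNA samples 1, 2 and 3 and 1.77, 4.91 and 4.18 RPKM in the controls. These ranges overlapped widely. The log2 fold change was 0.47 (SE 0.328, 95% interval -0.29 to 1.22), with an unadjusted p of 0.191 without the block and 0.00813 with it (limma adjusted p = 0.590 and 0.124). Differences within numbers were 0.59, 0.14 and 0.67. In fits without the block, the log2 fold change was 0.14 without control 1, 0.25 without CD73 siRNA sample 3 and 0.74 without CD73 siRNA sample 1. These fits kept the sample of the same number in the other group, so differences between numbers enter the values. The call with the block was lost when either number 1 or number 3 was left out. SETD7 varied most among the replicates of the controls, with a coefficient of variation of 45.3%. It lies at chr4:139495941-139606699 on the minus strand (GENCODE 29).

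The 6 methyltransferases of lysine 4 in the KMT2 and SETD1 families, the catalytic subunits of COMPASS complexes, gave 0 calls in limma (0 with p below 0.05), with 3 higher and 3 lower and a median log2 fold change of -0.03. KMT2A, the MLL gene of leukaemia translocations, was the highest of them at 21.7 ± 4.20 RPKM after knockdown and 24.1 ± 4.44 RPKM in controls (SD, 3 per group). SETD1A had the lowest p of the list, 0.0637, with 12.4, 14.2 and 14.5 RPKM after knockdown against 11.4, 12.2 and 11.1 RPKM, groups that did not overlap. Its paralog SETD1B stood at 5.94, 6.37 and 6.44 RPKM after knockdown and 9.72, 6.34 and 7.15 RPKM in controls, where control 1 was far above the other samples. KMT2C, which acts at enhancers, was the lowest of the list at 3.81 ± 0.367 and 3.12 ± 0.674 RPKM (SD, 3 per group), with a log2 fold change of 0.23 (unadjusted p = 0.144). KMT2B at -0.12 and KMT2D at 0.06 had intervals that crossed 0.

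PRC2, the complex that methylates lysine 27 of histone H3, gave 0 calls among its 4 core genes in limma (0 with p below 0.05). EZH2, its main catalytic subunit in dividing cells, measured 14.6 ± 1.19 RPKM after knockdown and 15.6 ± 0.910 RPKM in controls (SD, 3 per group). SUZ12, a scaffold subunit, measured 31.3 ± 0.440 and 32.5 ± 1.97 RPKM (SD, 3 per group), with a 95% interval of the log2 fold change from -0.26 to 0.16. EED, the subunit that reads the mark, had a log2 fold change of -0.13. These 3 genes were each lower in all 3 replicate numbers, by amounts within the spread between samples. EZH1, the alternative catalytic subunit, was higher on average, with 3.89, 3.86 and 3.93 RPKM after knockdown and 3.67, 3.29 and 3.35 RPKM in controls (log2 fold change 0.14, 95% interval -0.10 to 0.38). Its groups did not overlap, although the difference did not pass the test (unadjusted p = 0.204).

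The lysine 9 methyltransferases were higher in 2 and lower in 2 of 4 cases, with 0 calls in limma and 1 gene with p below 0.05. That gene was EHMT1, which with EHMT2 forms the GLP and G9a dimer that dimethylates lysine 9. EHMT1 measured 3.72, 4.01 and 3.90 RPKM after knockdown and 2.67, 3.18 and 2.91 RPKM in controls, and the groups were well apart. Its log2 fold change was 0.32 (SE 0.110, 95% interval 0.06 to 0.57), with an unadjusted p of 0.0205 and a limma adjusted p of 0.356; without moderation the unadjusted p was 0.0062, below the threshold. EHMT2 was at 8.47 ± 0.164 RPKM after knockdown and 9.33 ± 1.19 RPKM in controls (SD, 3 per group), a log2 fold change of -0.12. SUV39H1, an enzyme of constitutive heterochromatin, had a log2 fold change of -0.05 (95% interval -0.38 to 0.27). SUV39H2 had one of 0.27 and was higher in each replicate number (limma unadjusted p = 0.174 without the block and 0.0285 with it).

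The log2 fold changes of the lysine 36 methyltransferases ran from -0.12 to 0.03, with 0 of 4 called in limma and 0 with p below 0.05. SETD2, the enzyme of trimethylation in gene bodies, measured 10.1, 11.9 and 11.5 RPKM after knockdown and 12.4, 12.0 and 12.2 RPKM in controls. Its groups did not overlap, but samples 2 were nearly equal and the unadjusted p was 0.272. NSD2, an enzyme of dimethylation, was the highest of the list at 16.6 ± 1.04 and 16.9 ± 1.29 RPKM, and NSD3 the lowest at 2.68 ± 0.319 and 2.62 ± 0.343 RPKM (SD, 3 per group). NSD1 had a log2 fold change of -0.10.

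KMT5A, KMT5B and KMT5C methylate lysine 20 of histone H4, and DOT1L methylates lysine 79 of histone H3. In this list 0 of 4 were called in limma and 1 had p below 0.05, but each of the 4 had a log2 fold change over 0.2 in size, 2 in each direction. KMT5B, which adds the later methyl groups, measured 9.94, 9.44 and 6.89 RPKM after knockdown and 5.24, 7.65 and 6.28 RPKM in controls. Its groups overlapped, since knockdown sample 3 lay below control 2, and its log2 fold change was 0.40 (95% interval 0.01 to 0.79, unadjusted p = 0.0452, limma adjusted p = 0.400). KMT5C, its paralog, measured 4.36, 4.10 and 4.42 RPKM after knockdown and 8.62, 4.56 and 4.77 RPKM in controls. Control 1 alone was far above the rest, and the log2 fold change of -0.35 had an interval from -0.83 to 0.12. KMT5A, the enzyme of monomethylation, had the same shape, with 14.5, 14.4 and 13.05 RPKM against 22.1, 15.3 and 15.02 RPKM. Its log2 fold change was -0.28 (limma unadjusted p = 0.102 without the block and 0.0429 with it). DOT1L stood at 6.75 ± 0.699 and 5.51 ± 1.07 RPKM (SD, 3 per group), a log2 fold change of 0.26.

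Of the other 7 SET-domain members, SETD7 was described above, and 0 were called without the block in limma (0 with p below 0.05). SETD3, the actin histidine methyltransferase, was the highest at 22.4 ± 1.68 and 21.4 ± 1.26 RPKM, and SETD4 the lowest at 2.53 ± 0.287 and 2.78 ± 0.349 RPKM (SD, 3 per group). SETD5 had 14.3 ± 0.335 RPKM after knockdown against 13.2 ± 0.651 RPKM (SD, 3 per group) with groups that did not overlap, and a log2 fold change of 0.11. The remaining values were -0.07 for KMT2E, -0.04 for SETD6 and -0.08 for SETD9. Apart from SETD7, the list stayed within 0.11 of 0.

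Among the 7 arginine methyltransferases PRMT6 was the 1 called gene. PRMT1 measured 42.7 ± 1.54 RPKM after knockdown and 42.7 ± 1.75 RPKM in controls (SD, 3 per group). Its 95% interval of the log2 fold change, -0.21 to 0.21, was among the narrowest of all members, and the sign of the difference depended on the scaling. PRMT5, the main enzyme of symmetric dimethylation, measured 11.1, 16.1 and 12.7 RPKM after knockdown and 13.1, 18.3 and 14.4 RPKM in controls. It was lower in each number, by 0.23, 0.17 and 0.17 on the log2 scale, while the numbers differed from each other by more than the groups did. The log2 fold change was -0.19, with an unadjusted p of 0.288 without the block and 0.0464 with it (limma adjusted p = 0.675 and 0.208). PRMT9, the lowest of the list, had a log2 fold change of 0.13, and PRMT2, PRMT3 and PRMT7 had 0.06, 0.03 and -0.12.

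The flavin-dependent demethylases KDM1A (LSD1) and KDM1B (LSD2), which act on mono- and dimethylated lysine 4, were both lower in every replicate number, and 0 of 2 were called in limma (0 with p below 0.05). KDM1A was the second most abundant member at 38.7 ± 4.65 RPKM after knockdown and 40.7 ± 4.58 RPKM in controls (SD, 3 per group), a log2 fold change of -0.07. KDM1B measured 15.9, 15.3 and 14.5 RPKM after knockdown and 17.3, 16.5 and 19.8 RPKM in controls. The KDM1B groups did not overlap, and the log2 fold change was -0.21 (95% interval -0.45 to 0.03, unadjusted p = 0.0780).

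The Jumonji demethylases of lysines 36 and 9 comprised 9 genes, of which 7 were tested, with 4 higher and 3 lower and 0 called without the block in limma (2 with p below 0.05). Beside KDM2A, its paralog KDM2B, a subunit of a variant Polycomb complex, had 2.58, 2.69 and 3.05 RPKM after knockdown and 1.41, 2.25 and 2.03 RPKM in controls. All knockdown samples of KDM2B were above all controls (log2 fold change 0.39, 95% interval 0.05 to 0.73, unadjusted p = 0.0290, limma adjusted p = 0.373). KDM3B, which acts on lysine 9, was at 13.5 ± 1.17 RPKM against 15.5 ± 0.640 RPKM (SD, 3 per group), a log2 fold change of -0.19. KDM4A, KDM4B, KDM4C and KDM4D, a family that acts on trimethylated lysine 9, had log2 fold changes of -0.03, 0.08, -0.03 and 0.11. KDM7A, under the filter, measured 0.653, 0.728 and 0.699 RPKM after knockdown and 0.965, 0.881 and 0.933 RPKM in controls, all knockdown samples lying below all controls, and KDM8 lay between 0.654 and 1.28 RPKM.

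The Jumonji demethylases of lysines 4 and 27 were 5 genes, with KDM5B as the 1 called gene. Its paralogs did not pass the test. KDM5A had a log2 fold change of 0.07 (95% interval -0.22 to 0.36), and KDM5C had 0.20 (95% interval -0.21 to 0.61). KDM5C was the most abundant of the list, at 17.2, 22.9 and 22.6 RPKM after knockdown and 14.0, 21.9 and 18.7 RPKM in controls, and it was higher in each number. The differences within numbers were 0.28, 0.06 and 0.26, and the unadjusted p was 0.290 without the block and 0.0499 with it (limma). Without control 1 the KDM5C log2 fold change was 0.03 (unadjusted p = 0.830), in a fit without the block that kept CD73 siRNA sample 1. KDM6A (UTX), which demethylates lysine 27, had a log2 fold change of -0.16 (95% interval -0.46 to 0.14). KDM6B (JMJD3), an inducible enzyme of the same reaction, had 0.02, but its interval of -0.53 to 0.57 was wide because samples 2 were high in both groups, at 6.71 and 6.13 RPKM.

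**Figure D4:**
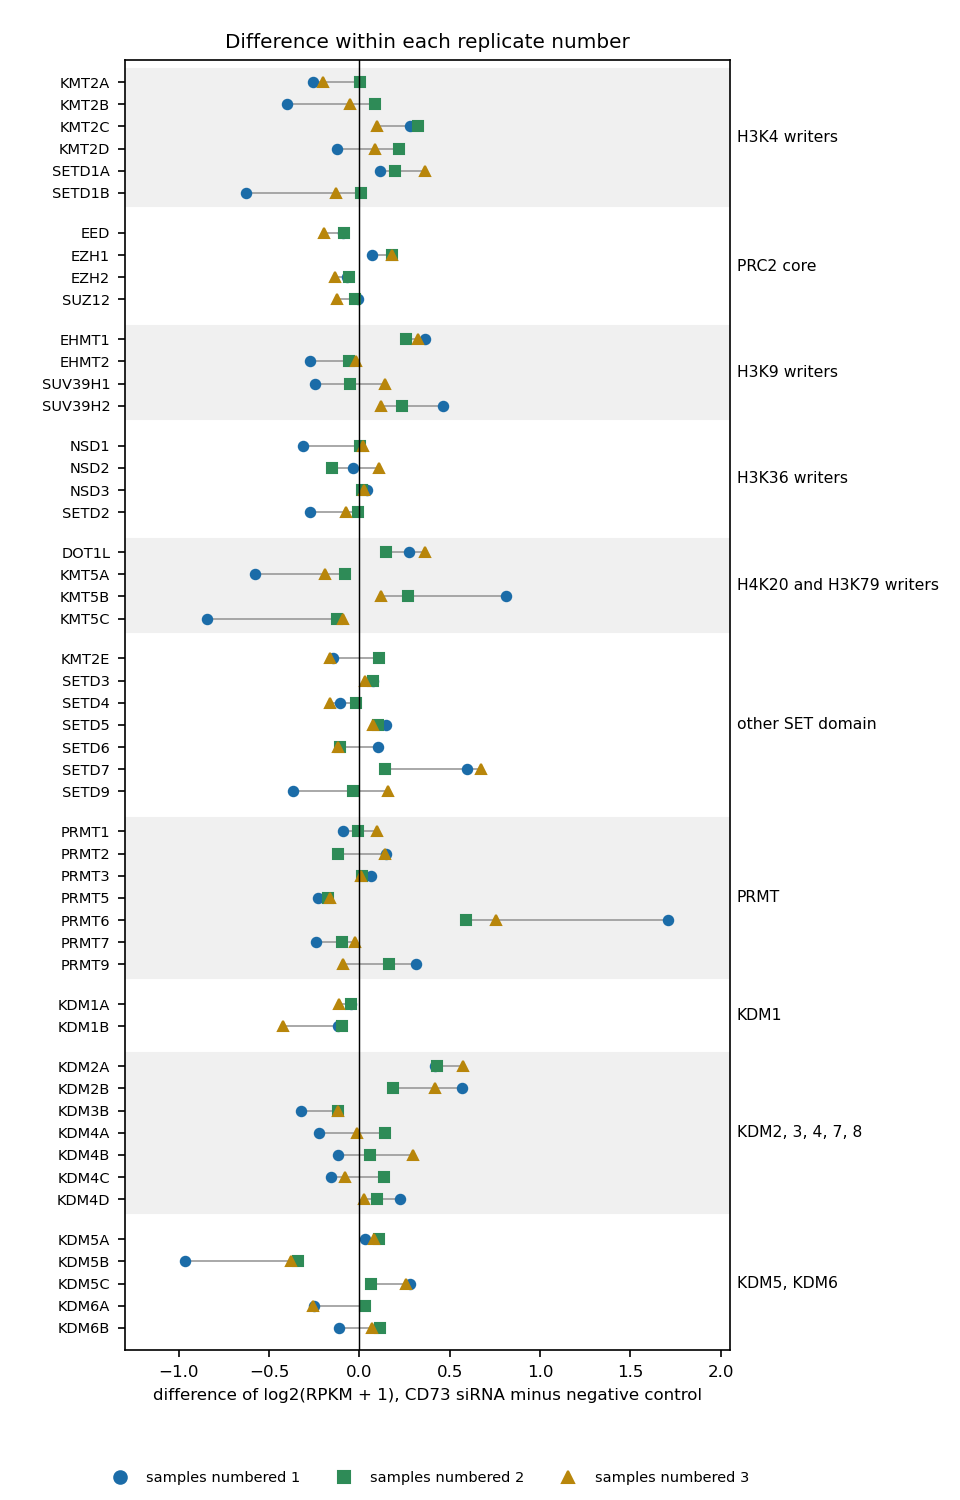
Difference between CD73 siRNA and negative control on the log2(RPKM + 1) scale within each replicate number, for the 50 tested members by role. PRMT6 is above 0 (1.71, 0.59 and 0.76) and KDM5B below 0 (-0.97, -0.34 and -0.38) at all 3 numbers, with the widest gaps at number 1.

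Replicate number 1 carried the largest differences. The median size of the difference over members was 0.23 at number 1, 0.10 at number 2 and 0.12 at number 3, against 0.24, 0.10 and 0.15 over all genes. Differences over 0.5 in size were found in 8, 1 and 3 members. Control 1 stood at least 1.25 times above the next sample in SETD1B, KMT5A and KMT5C (6% of members, against 4.01% of all genes), and as far below the next sample in KDM2B, PRMT6 and SETD7 (6%, against 7.38%). Without control 1, PRMT6 had a log2 fold change of 0.78 (unadjusted p = 0.0076) and was the 1 member called.

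Related enzymes were also set against each other within a sample, on the RPKM scale, which accounts for length. The 11 pairs were chosen after the values were seen and were not tested. In 5 of them the groups did not overlap, and the share over other gene pairs was not computed. Of the genes in these 5 pairs, EHMT1, KDM5B, SETD1A and PRMT6 had groups that did not overlap on their own. The ratio of EHMT2 to EHMT1 was 2.10 to 2.33 after knockdown and 2.77 to 3.999 in controls. The ratio of KDM5C to KDM5B was 2.46 to 3.02 after knockdown and 1.02 to 1.86 in controls, and that of SETD1A to SETD1B was 2.08 to 2.26 and 1.17 to 1.93. KMT2A to KMT2C gave 4.75 to 6.30 after knockdown and 7.39 to 8.47 in controls, and PRMT1 to PRMT6 gave 2.19 to 3.38 and 4.07 to 8.72. EZH2 to EZH1 overlapped slightly, at 3.47 to 4.13 and 4.12 to 5.07, as did SUV39H1 to SUV39H2, at 1.39 to 1.77 and 1.74 to 2.53. The ratios of KMT5A to KMT5C, KDM2A to KDM2B, KDM1A to KDM1B and KDM4A to KDM4C overlapped widely.

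The partners of these enzymes, other histone methyltransferases and demethylases outside the naming rule and genes of methyl donor supply made up 53 genes, all tested. Of these 2 were higher and 0 lower at unadjusted p below 0.01 (limma, with 4 at p below 0.05 and 0 after adjustment), and by mean 31 were higher and 22 lower. The shares were 3.77% higher, against 1.82% of all genes, and 0% lower, against 1.31%, while 7.55% had p below 0.05, against 12.1%. HDAC1, the deacetylase that works with KDM1A in the CoREST complex, had 72.9 ± 5.71 RPKM after knockdown and 48.7 ± 11.4 RPKM in controls (SD, 3 per group). It rose by 0.60 on the log2 scale (unadjusted p = 0.00879, limma adjusted p = 0.313), and by 0.39 without control 1, the lowest sample. PHF1, a PRC2 accessory protein, rose by 0.39, from 11.2 ± 1.31 to 14.9 ± 0.471 RPKM (SD, 3 per group, limma adjusted p = 0.305). The HDAC1 call was lost without any single CD73 siRNA sample (unadjusted p = 0.0272, 0.0117 and 0.0304 without sample 1, 2 and 3), and the PHF1 call without any single sample other than control 2. The core PRC2 genes and KDM1A did not pass the test in either direction.

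The lowest p in each other list was above the threshold. These genes were RBBP5 of the COMPASS core (log2 fold change 0.27, unadjusted p = 0.0581), MLLT1 of the DOT1L complexes (0.24, unadjusted p = 0.0433) and COPRS, a PRMT5 partner (0.26, unadjusted p = 0.0841). SMYD5 had 0.19 (unadjusted p = 0.171) among methyltransferases outside the naming rule, and HR, the hairless demethylase, had 0.30 (unadjusted p = 0.177). MAT2B, the regulatory subunit of methionine adenosyltransferase, which makes S-adenosylmethionine, had 0.37 (unadjusted p = 0.0138). All 6 were higher on average after knockdown, but each was picked as the lowest p of its list. Higher and lower by mean were 5 and 6 of the COMPASS partners, 1 and 3 for DOT1L and 3 and 1 for PRMT5. For the PRC2 partners they were 6 and 1, and for the CoREST partners 3 and 3. The counts were 5 and 5 for methyltransferases outside the naming rule, 4 and 2 for demethylases outside it and 4 and 1 for methyl donor supply.

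Reads could be shared where genes overlap, since the strand setting of the counting is not given in the sources used here. KDM4A shared 40.2% of its exon bases with a gene on the same strand and KMT2A 17.9%. PRMT5 (27.1%), SETD6 (21.4%), SUV39H1 (20.3%), KDM8 (14.5%) and DOT1L (11.5%) overlapped genes on the opposite strand. PRMT6, KDM5B, KDM2A and SETD7 shared none.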

How the data were processed

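RNA from 6 PANC-1 samples, 3 with CD73 siRNA and 3 with negative control siRNA, was sequenced by the study. The submitters' processing notes name bcl2fastq, Bowtie2 2.2.3, HTSeq 0.6.0 and hg38; the roles of the tools, the annotation and the strand setting are not given in the sources used here. The authors deposited 1 gene table per sample with a single value per Ensembl gene, used here as RPKM. The unit was read from the values: in each sample 96.1 to 96.3% of genes under 1000 reads were whole multiples, within 0.1 read, of 1 step divided by the merged GENCODE 29 exon length. Reads and library totals in the text are derived from these steps. Symbols came from the gene name table for 30384 of the 30735 genes, and 132 genes had no GENCODE 29 entry.

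Genes with at least 1 RPKM in 3 or more samples were tested on log2(RPKM + 1) with limma 3.58.1 in R 4.3.3 (empirical Bayes with a mean-variance trend, two-sided) and Benjamini-Hochberg adjustment over all genes. A log2 fold change on this scale understates the change of low genes. The threshold was an unadjusted p below 0.01; the study gives p below 0.01 and does not say whether it was adjusted. The script was tested on simulated data with independent samples and with changes larger than those of PRMT6 and KDM5B. That test does not cover smaller changes or samples that deviate together. Samples with the same replicate number deviated together over all genes (Pearson's r of their deviations from the group means 0.197, 0.481 and 0.553 for numbers 1, 2 and 3), so the numbers, which come from the sample titles, were taken to pair the samples.

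The members and lists were chosen with earlier results of these data known. Genes named with values were those with p below 0.01, the lowest p and the highest and lowest level in each role list, members whose groups did not overlap with a log2 fold change of at least 0.3 in size, and the lowest p in each list of partners. Other members were given so that all are accounted for. Alternatives were a pseudocount of 0.1, no filter, median-ratio scaling, quantile normalization, no moderation, the replicate block, adjusted p below 0.05 and leaving out each sample. Single samples were left out in the fit without the block. Leaving out each pair under the block was added after seeing the data.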

Additional observations from a re-analysis of the deposited data

How the results depend on the processing

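The number of genes called over the whole table was 392. It was 948 with the replicate block, 216 without moderation of the variances, 1 at adjusted p below 0.05, and 116 to 792 when single samples were left out, with 116 without CD73 siRNA sample 1, 188, 792 and 258 without control 1, 2 or 3. Of 50 members 2 were called. The count was 4 with the replicate block, which added KDM2A and SETD7 and changed no other call among the members named, 1 with no filter on low values (PRMT6), 1 without moderation (EHMT1), 0 at adjusted p below 0.05, and 1 to 2 with single samples left out. It was 1 without CD73 siRNA sample 1 (KDM2A) and 1 without CD73 siRNA sample 3 or control 1 (PRMT6). With the block and a pair left out, an alternative chosen after seeing the data, it was 3, 5 and 2 without number 1, 2 or 3. The 2 partner genes called, HDAC1 and PHF1, became 1 with no filter, 0 without moderation, 0 at adjusted p below 0.05, and 0 to 2 with single samples left out. It was 0 when any single CD73 siRNA sample was left out and 1 without control 1 or control 3. The NT5E fold change of -1.23 was not called without moderation or at adjusted p below 0.05, and ranged from -1.44 to -0.90 with single samples left out.

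Some members changed sign, and the cause was not tested. Most of them had differences near 0, but KMT2A was at -0.15 with all samples and changed sign without CD73 siRNA sample 1. PRMT1 was -0.017 with median-ratio scaling and -0.00044 with quantile normalization, and KDM6B was -0.0033 with quantile normalization. With single samples left out, PRMT1 ranged from -0.033 to 0.030, KDM6B from -0.21 to 0.21, KDM4C from -0.11 to 0.026, KMT2A from -0.27 to 0.0045, NSD2 from -0.071 to 0.032, NSD3 from -0.051 to 0.094, KDM1A from -0.16 to 0.011 and SUV39H1 from -0.18 to 0.029. For the 27 members named by the rule, 294 of 324 values kept their sign and side of the threshold, 17 changed sign, 8 lost the call and 5 gained it. With 3 samples per group, no member with a log2 fold change under 0.3 in size had an unadjusted p below 0.05 in the limma fit with the filter and without the block. With the block, DOT1L, SUV39H2, SETD1A, KMT5A, PRMT5, KMT2C and KDM5C did (unadjusted p from 0.0217 to 0.0499, limma). The share of all genes below 0.05 in that fit was not counted.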

Other observations

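Names of the same families that are not protein-coding genes were kept apart, 11 in all, of which 3 passed the filter. KMT5AP2, a pseudogene of KMT5A, measured 1.07, 0.789 and 1.19 RPKM in CD73 siRNA samples 1, 2 and 3 and 2.203, 0.984 and 1.27 RPKM in the controls, with control 1 the highest, as for KMT5A itself; reads of the 2 genes may not be separable where their sequences match. PRMT5-DT, a transcript divergent from PRMT5, measured 1.64, 0.642 and 1.68 RPKM after knockdown and 0.630, 1.89 and 0.808 RPKM in controls, a pattern with no order by group. KDM4A-AS1 lay between 0.872 and 1.38 RPKM. Under the filter, KMT2E-AS1 measured 0.676, 1.122 and 1.05 RPKM after knockdown and 0.678, 0.437 and 0.543 RPKM in controls, with overlapping groups.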
